A study of Mus musculus with 116 samples.

Results

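A DNA break cut by a zinc-finger nuclease (ZFN) in the T-cell receptor beta enhancer Eb on mouse chromosome 6 was in most reads rejoined directly to the other side of the cut. The joins described here are the exceptions on the same chromosome. Inverted joins lie within 100 kb of the cut but continue on the opposite strand, and far joins lie more than 100 kb away on either strand. Both classes were chosen by position and strand alone, with the first prey base of the cut at 41554977 (mm10). Of 125900 junction reads in 18 libraries, 120606 joined the bait to chromosome 6. Of these, 69 were inverted, 7270 were far, and the other 113267 were direct joins within 100 kb. Of the far joins, 6782 lay in the immunoglobulin kappa light chain locus (Igk, taken as 67500001 to 70760000 of chromosome 6).

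All libraries came from mouse pro-B lines, early B-lineage cells immortal through the v-Abl kinase, and all carried the Emu-Bcl2 transgene, which keeps arrested cells alive. STI-571, which blocks that kinase, arrested them in G1 (3 µM, 96 h), and the ZFN was induced by doxycycline at 2 µg/ml. The 6 groups, each of 3 libraries, were Lig4-/- clone D, the same clone with Lig4 added back (+Lig4), Lig4-/-Ku70-/- clone D1 without and with Ku70 added back (+Ku70), and Lig4-/-Ku70-/- clone D2 without and with Ku70. Each genotype thus rests on 1 or 2 clones, no wild-type clone had a ZFN library, and nothing in the labels says that the 3 libraries of a group came from separate cultures, so p-values measure the spread between these libraries only. Every library was normalised to 600000 raw reads.

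Ligase IV (Lig4) seals the ends in classical non-homologous end joining, and Ku70 with its partner Ku80 forms the ring that binds broken ends and brings the ligase to them. Without this pathway, ends can be joined by alternative end joining, which is known for resected ends and for short stretches of shared bases (microhomology). Pro-B cells of this kind switch on the RAG recombinase when arrested. RAG cuts Igk between a V or J segment and its recombination signal, whose conserved heptamer reads CACAGTG from the cut outward, and leaves a coding end on the segment and a signal end on the other side. A second break at Igk in the same cell can meet the ZFN break at Eb, and both loci lie on chromosome 6, the near edge of Igk being 25.9 Mb and its far edge 29.2 Mb from the cut.

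The reads below show the classes at base level, taken from the deposited reads. Bait bases and any inserted bases are in lower case, and the prey starts with the capitals, which include any bases shared with the bait. The first read is a direct rejoin at the cut, the most frequent one in +Lig4 (2999 reads, 3 libraries), and holds 1 inserted base.
Direct rejoin, +Lig4: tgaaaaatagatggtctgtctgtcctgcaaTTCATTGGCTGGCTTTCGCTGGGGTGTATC
The next reads are far joins to the J segment Igkj1 (70722562 to 70722599). On the signal side the prey opens with the heptamer CACAGTG at 70722561 on the minus strand. In +Lig4 the bait ended at the cut, and in the Lig4-/-Ku70-/- clones the most frequent such junction (6 reads in 6 libraries) had lost 7 bp of bait.
Igkj1 signal end, +Lig4: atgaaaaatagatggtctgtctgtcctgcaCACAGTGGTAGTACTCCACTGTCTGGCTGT
Igkj1 signal end, Lig4-/-Ku70-/-: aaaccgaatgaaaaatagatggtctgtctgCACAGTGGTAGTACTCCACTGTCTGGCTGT
On the coding side the prey runs into the Igkj1 segment itself.
Igkj1 coding end, +Lig4: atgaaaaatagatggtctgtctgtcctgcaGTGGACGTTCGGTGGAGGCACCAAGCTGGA
Igkj1 coding end, Lig4-/-Ku70-/-: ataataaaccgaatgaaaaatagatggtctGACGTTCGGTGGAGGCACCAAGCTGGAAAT
Igkv1-135 (67609745 to 67610508), the V segment with the most joins, was hit on both sides as well. The coding read had lost 15 bp of bait, and the signal read starts inside the heptamer.
Igkv1-135 coding end, Lig4-/-Ku70-/-: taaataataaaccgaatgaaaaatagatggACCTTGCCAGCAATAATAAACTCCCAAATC
Igkv1-135 signal end, Lig4-/-Ku70-/-: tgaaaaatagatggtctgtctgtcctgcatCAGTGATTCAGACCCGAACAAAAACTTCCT
The last reads are inverted joins, 1 from Lig4-/- with 7 shared bases at 6578 bp from the cut and 1 from Lig4-/-Ku70-/- clone D1 with 3 shared bases at 10942 bp, the farthest inverted join of all. Each junction was read once. Neither is typical, since each is the farthest of its group and 7 bases are the longest overlap of any inverted join.
Inverted join, Lig4-/-: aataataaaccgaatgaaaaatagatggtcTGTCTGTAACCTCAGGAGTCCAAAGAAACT
Inverted join, Lig4-/-Ku70-/-: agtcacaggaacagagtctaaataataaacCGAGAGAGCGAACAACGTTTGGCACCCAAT

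The raw reads were the same for every library, and the number of junction reads found in them differed widely. The lists held 339 to 665 junction reads in Lig4-/-, 8865 to 9709 in +Lig4, 16870 to 17254 in clone D1, 839 to 1207 in clone D1 +Ku70, 6164 to 17177 in clone D2 and 161 to 2202 in clone D2 +Ku70. Replicates 2 and 3 of clone D2 +Ku70 stood apart with 196 and 161 reads, 2 Igk joins each and no inverted join. No read name occurred in 2 libraries. The read names gave 4 sequencing runs. Lig4-/- and +Lig4 shared 1 run and clone D1 without and with Ku70 another. Replicate 1 of clone D2 shared a run with replicate 1 of clone D2 +Ku70, and replicates 2 and 3 shared another. Clone D was never run with D1 or D2, so that run, clone and genotype cannot be told apart in comparisons between them. Intervals below are exact Clopper-Pearson intervals at 95%, they cover counting error only since the reads carry no molecular identifiers, and 3 reads correspond to 0.500 per 100000 raw reads.

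Joins to Igk were most abundant in the Lig4-/-Ku70-/- clones, fewer in +Lig4 and near the limit in Lig4-/-. The 3 Lig4-/- libraries held 1.00, 1.17 and 1.33 Igk joins per 100000 raw reads, in all 21 reads. With Lig4 added back the values were 22.7, 21.7 and 25.2. Clone D1 gave 162.3, 187.7 and 194.0, and clone D2 gave 212.2, 200.8 and 72.2. The 4 groups fall in 3 levels that do not overlap, with D1 and D2 sharing the highest.

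On the log2 scale (0.5 added to each count), Igk joins were higher than in Lig4-/- by 7.19 in clone D1, by 6.87 in clone D2 and by 4.22 in +Lig4. In the two-sided exact permutation test each of these comparisons of 3 with 3 libraries had p = 0.100, the smallest that design allows. With the libraries of D1 and D2 pooled against clone D the difference was 7.03 (exact permutation p = 0.0119, the smallest that layout allows). The pooling treats libraries of both clones as replicates of each other, and it was not among the adjusted tests. Over the 84 tests made here the smallest Benjamini-Hochberg adjusted p was 0.140, from the +Ku70 comparisons described next, so no comparison passed at 0.05 after adjustment. Against +Lig4, Igk joins were higher by 2.96 in clone D1 and by 2.65 in clone D2, again with no overlap and exact permutation p = 0.100.

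With Ku70 added back the Igk level was lower in both Lig4-/-Ku70-/- clones. Clone D1 +Ku70 held 8.67, 6.83 and 5.83 Igk joins per 100000 raw reads, all below the lowest D1 library. Clone D2 +Ku70 held 6.17, 0.333 and 0.333, where both low values are 2 reads each. The mean of the difference in the clones was -5.91 on the log2 scale (-4.67 in D1 and -7.15 in D2, exact permutation p = 0.005, adjusted p = 0.140). Within the 2 runs of clone D2 the differences were -5.09 for replicate 1 and -8.18 for replicates 2 and 3. Far joins as a whole differed by -4.95 (exact permutation p = 0.005, adjusted p = 0.140), and the effect did not differ detectably between clones (1.47, exact permutation p = 0.710). In the bulk libraries fewer cells with a break and fewer joins per break cannot be told apart.

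**Figure D1:**
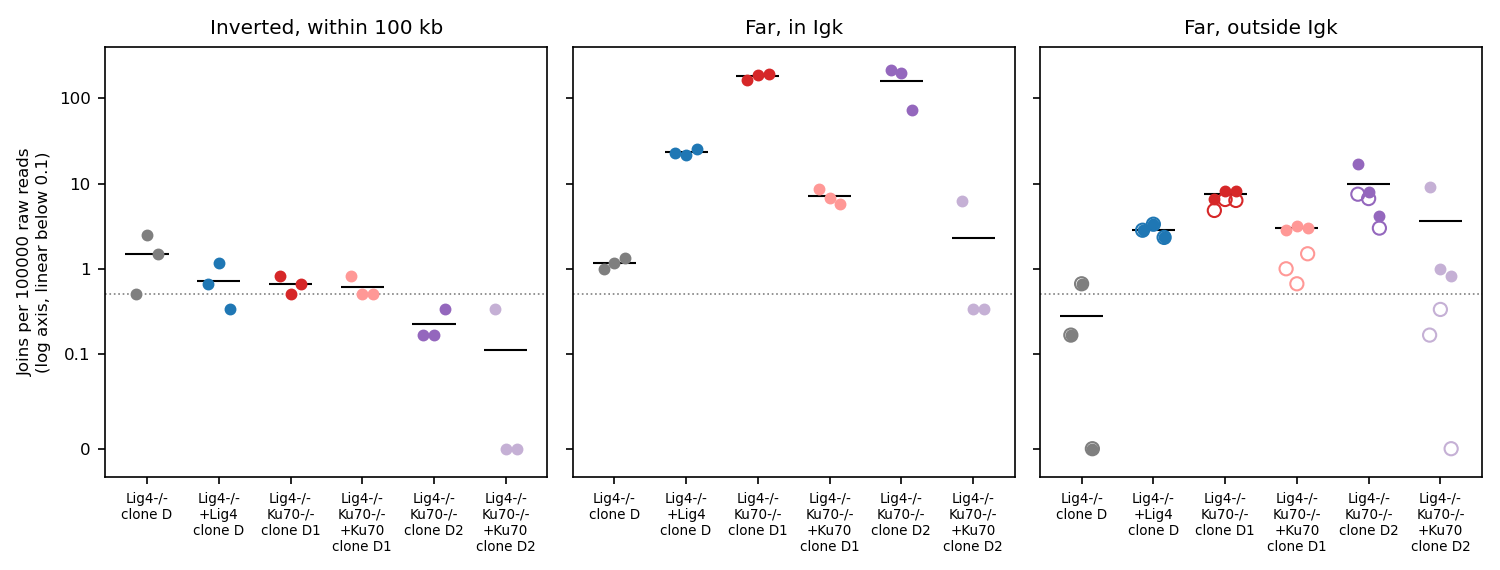
Joins per 100000 raw reads (log axis, linear below 0.1) in each of the 18 libraries, for inverted joins, far joins in Igk and far joins outside Igk, with 1 point per library and a line at the group mean. Open circles in the right panel leave out joins with a G-rich prey part, and the dotted line marks 3 reads (0.500). The clone D1 and D2 libraries sit at 72.2 to 212.2 for Igk, while inverted joins stay at or below 2.50 in every library.

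Group means of direct joins within 100 kb stood in the same order (87.4, 1505, 1920 and 2612 per 100000 raw reads in Lig4-/-, +Lig4, D2 and D1). The lowest D2 library, at 920.5, lay below every +Lig4 library (1444 to 1585). Far joins are therefore also given as a share of chromosome 6 joins. Far joins made up 1.70% ± 0.480 (SD, n = 3) of chromosome 6 joins in Lig4-/-, 1.70% ± 0.149 in +Lig4, 6.75% ± 0.671 in clone D1 and 8.09% ± 0.597 in clone D2. The difference from Lig4-/- was 5.05 percentage points in D1 and 6.39 in D2 (exact permutation p = 0.100 each), and +Lig4 differed from Lig4-/- by 0.00371 points (exact permutation p = 1.00). For far joins outside Igk alone, with G-rich prey (defined below) included, the differences were -0.0223 points in D1, 0.183 in D2 and -0.125 in +Lig4. Such prey occurred in D1 and D2 but not in Lig4-/- or +Lig4. Far joins were almost never repeated, with 7267 distinct junctions among 7270 reads, while direct joins within 100 kb gave 11615 distinct junctions among 113267 reads. With each distinct junction counted once per library the far share was 4.75% ± 1.11 in Lig4-/-, 13.7% ± 1.02 in +Lig4, 46.6% ± 2.45 in D1 and 48.8% ± 7.78 in D2. In replicate 1, direct joins shrank from 311 to 107 in Lig4-/-, from 9510 to 1034 in +Lig4 and from 15938 to 1291 in D1. The share of distinct junctions thus also depends on the number of junction reads, and its size at equal numbers was not tested.

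The far share with +Ku70 depended on how reads were counted. It was 7.70% ± 0.662 in clone D1 +Ku70 and 14.4% ± 6.48 in clone D2 +Ku70, which is a mean of 3.63 points above the clones without Ku70, with overlap in D1 (exact permutation p = 0.0150, adjusted p = 0.175). Counted as distinct junctions the difference was -29.2 points (exact permutation p = 0.005). That count took direct joins from 15938 to 1291 in D1 replicate 1 and from 916 to 335 in D1 +Ku70 replicate 1. The -29.2 points thus also depend on the number of junction reads, and how far was not tested. With G-rich prey left out the difference was -1.20 points (exact permutation p = 0.0400). For far joins outside Igk alone, G-rich prey included, it was 6.09 points (exact permutation p = 0.005). Leaving out D2 replicate 1, 2 or 3 gave 3.8, 3.57 and 3.53 points with exact permutation p of 0.105, 0.135 and 0.135.

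G-rich prey, meaning a prey read part that is at least 80% G, made up 201 of the 488 far joins outside Igk and none of those in Igk. Such a read ends as follows, and the aligner placed it at 99010178.
G-rich prey: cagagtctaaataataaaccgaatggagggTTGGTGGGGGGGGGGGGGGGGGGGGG
No far join of clone D, without or with Lig4, had a G-rich prey, while 31 of 137 did in clone D1, 35 of 54 in D1 +Ku70, 73 of 176 in D2 and 62 of 65 in D2 +Ku70. The 5 windows of 10 kb outside Igk with the most distinct junctions, which hold or touch Klrb1b, Mansc1, Iqsec1, Grip2 and Rassf8, were G-rich in every read (34, 30, 15, 15 and 13 reads).

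Igk therefore took a share of the far joins that rests on these reads in part. It was 83.1% ± 18.3 (SD, n = 3) in Lig4-/-, 89.0% ± 2.43 in +Lig4, 96.0% ± 0.161 in clone D1 and 94.4% ± 1.83 in clone D2, against 69.9% ± 4.86 in D1 +Ku70 and 31.4% ± 8.21 in D2 +Ku70. The +Ku70 difference of -44.5 points (exact permutation p = 0.005, adjusted p = 0.140) was -12.1 points without G-rich prey (exact permutation p = 0.0500). In replicate 1 of clone D2, which had its own run, it went from -51.9 to 0.783 points. In replicates 2 and 3 of D2 it went from -68.6 to -21.4 points, and in D1 from -26.1 to -10.1 points. What G-rich prey contributes to the difference beyond these values was not tested.

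Most Igk joins lay next to a RAG end. The ends of 119 V segments were oriented with the wild-type RAG libraries of the same series, and 5 J segments were taken from the annotation. Of 6782 Igk joins, 5454 (80.4%) lay within 200 bp of loss from such an end or up to 10 bp past it. The share was 79.6% in +Lig4 (332 of 417), 82.5% in clone D1 (2692 of 3264), 78.4% in clone D2 (2281 of 2911) and 66.7% in Lig4-/- (14 of 21). Of 171 signal-side joins that started exactly at the end, 160 began with CACAGTG, which checks the placing of the ends and is no separate evidence of joining there. Joins on the coding side (2759) and on the signal side (2695) were about equally many in sum. At V segments they numbered 2465 and 2219, and at J segments 294 and 476. Prey strands were near equal, with 3213 Igk joins in the orientation that would delete the sequence between Eb and Igk and 3569 in the orientation that would invert it.

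The signal side took 44.4% ± 5.94 (SD, n = 3) of joins at RAG ends in +Lig4, 51.3% ± 1.79 in clone D1 and 47.6% ± 2.37 in clone D2. This share pools V and J segments, and the part at J segments differed between these groups. Clone D1 did not overlap +Lig4 (6.97 points, exact permutation p = 0.100), while D2 did (3.24 points, exact permutation p = 0.500). With +Ku70 the share was 5.18 points higher (exact permutation p = 0.0500 over 11 libraries, adjusted p = 0.175). That value falls on the other side of the threshold when any of 9 single libraries is left out.

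Use of the segments was uneven. Over all libraries Igkv1-135 took 671 joins, Igkv6-32 504, Igkv1-117 437 and Igkv8-30 394, and these 4 held 42.8% of the 4684 joins at V segments. Igkv1-135 lies at the far V end of the locus from Igkj1 and held 6.95% of Igk joins in +Lig4, 9.96% in D1 and 10.2% in D2. Igkv6-32 (70074024 to 70074584) held 5.28%, 7.84% and 7.21%. Igkv1-117 (68121091 to 68121825) held 2.88%, 6.43% and 7.01%, and Igkv8-30 (70117061 to 70117617) held 5.76%, 5.70% and 6.05%. In +Lig4, Igkv8-34 (4.56%, 19 joins) stood above Igkv1-117 (12 joins). Of the 119 V segments, 107 had at least 1 join. Joins per V segment in D1 and D2 correlated with r = 0.99 (Spearman 0.89, 119 segments) and those of D1 and +Lig4 with r = 0.89 (Spearman 0.70), as a description across segments, which are not replicates.

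The V segments joined to Eb were set beside those in the wild-type RAG libraries. Over the 119 segments r was 0.47 (Spearman 0.69), the RAG libraries being from another bait and other clones. Igkv12-44 led the wild-type RAG rows of V segments with 46376 (4.49%) and held 81 joins to Eb, whereas Igkv8-34 had 6325 RAG rows (0.613%) and 130 joins. Recurrent positions outside the oriented ends included 70074074 in Igkv6-32 (8 reads in 6 libraries), but those with the most reads lay at another site. Between 68164378 and 68164474, at the edge of Igkv11-114 (68164459 to 68164923) away from its RAG end, 251 joins fell in 12 libraries, of which 101 came from clone D1, 124 from clone D2 and 17 from +Lig4. A repeated read there, with 2 shared bases at 68164428, is shown.
Igkv11-114 edge, Lig4-/-Ku70-/-: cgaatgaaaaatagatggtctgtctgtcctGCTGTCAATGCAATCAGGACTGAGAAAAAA

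**Figure D2:**
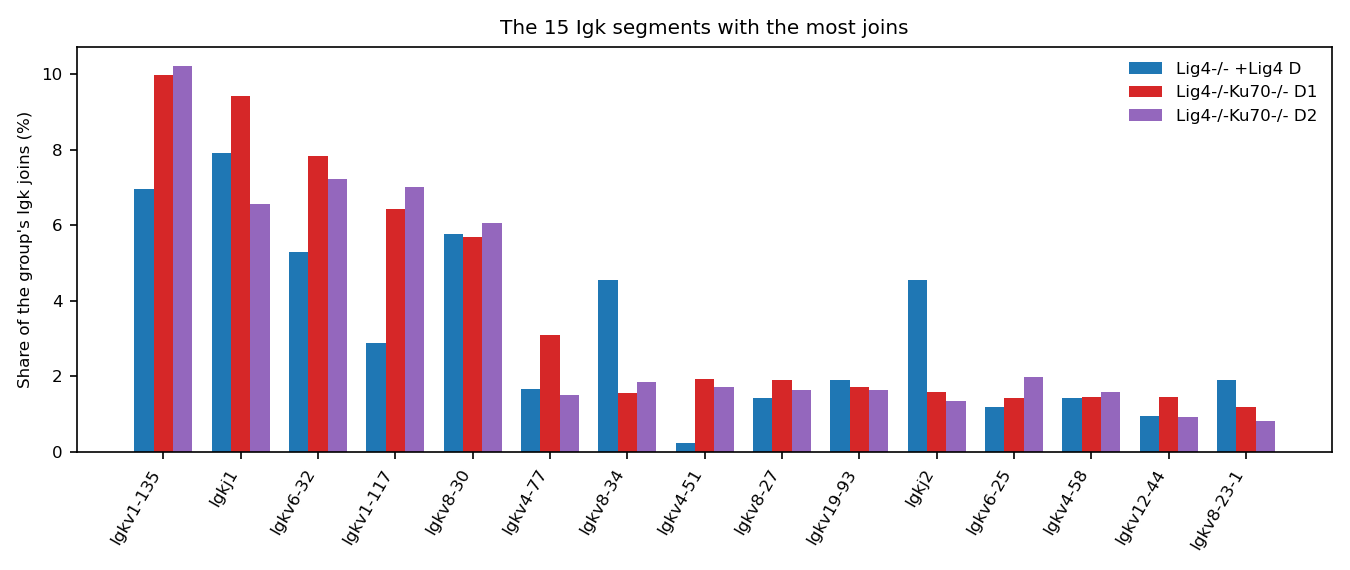
Share of each group's Igk joins (%) at the 15 V or J segments with the most joins over all libraries, for +Lig4 (417 Igk joins), clone D1 (3264) and clone D2 (2911), with replicates summed. Igkv1-135 leads in D1 (9.96%) and D2 (10.2%), Igkj1 in +Lig4 (7.91%), and Igkj2 is higher in +Lig4 (4.56%) than in D1 (1.59%) or D2 (1.34%).

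The J segments, to which V segments are joined in kappa rearrangement, differed in use between +Lig4 and the double-deficient clones. They took 21.6% ± 0.693 of Igk joins in +Lig4 (SD, n = 3), 12.2% ± 1.40 in clone D1 and 8.39% ± 4.19 in clone D2. The differences were -9.35 and -13.2 points with no overlap (exact permutation p = 0.100 each). Within the J cluster, +Lig4 spread over 33 joins at Igkj1, 19 at Igkj2, 19 at Igkj4 and 19 at Igkj5, with none at Igkj3. In clone D1 the counts were 307, 52, 29 and 13, and in clone D2 191, 39, 12 and 15. Igkj1 thus held 36.9% ± 7.24 of J joins in +Lig4, 77.1% ± 5.74 in D1 and 80% ± 11 in D2 (exact permutation p = 0.100 for each clone). With +Ku70 only 14 J joins in D1 and 5 in D2 were left to compare.

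**Figure D3:**
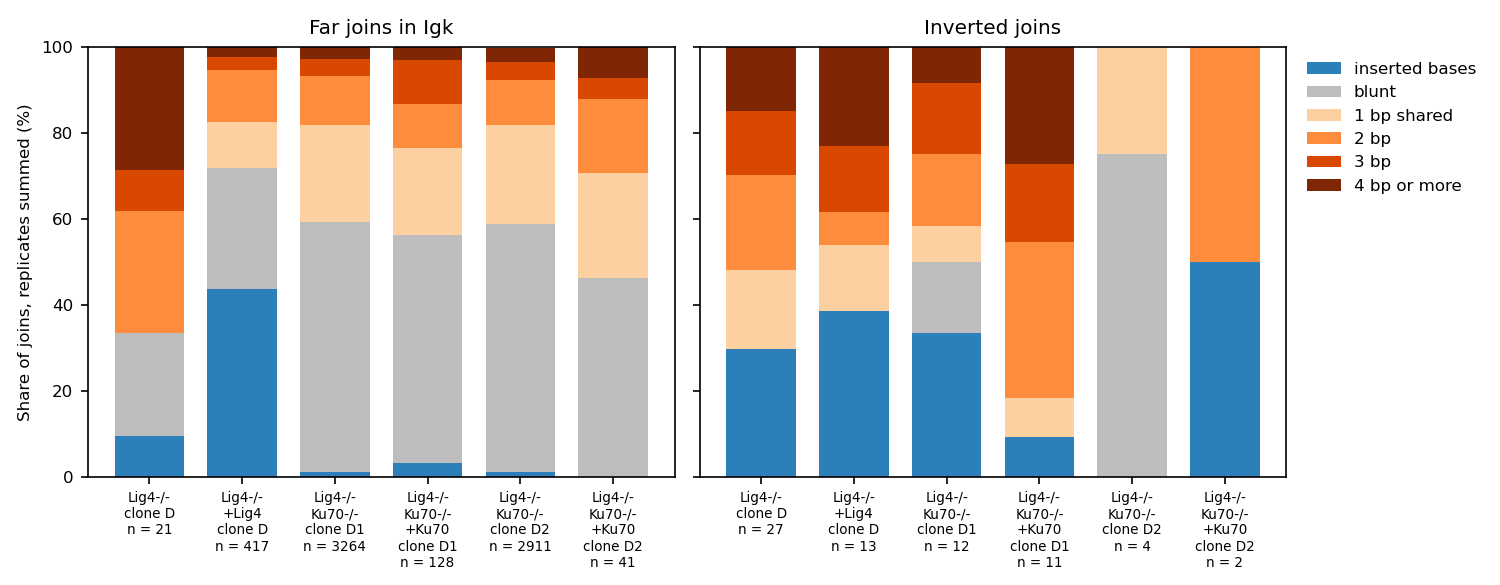
Share of joins (%) with inserted bases, blunt, or with 1, 2, 3 or at least 4 shared bases, for far joins in Igk and for inverted joins, with the 3 libraries of a group summed and n the number of joins. Igk joins of +Lig4 hold inserted bases in 43.6%, those of clones D1 and D2 are mostly blunt (58.1% and 57.7%), and inverted joins rest on 2 to 27 reads per group.

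The joints themselves differed between the groups. In +Lig4, 44.0% ± 6.53 of Igk joins (SD, n = 3) held inserted bases and 28.3% ± 2.01 were blunt. In clone D1 inserted bases were found in 1.12% ± 0.174 and blunt joints in 58.2% ± 3.14, and in clone D2 in 1.23% ± 0.444 and 58.7% ± 3.01. Against +Lig4 the insert share was lower by 42.8 points in D1 and by 42.7 in D2, without overlap (exact permutation p = 0.100 each). The 182 inserts of +Lig4 had a median of 2 bases and were 65.6% G or C over 422 bases, while the 37 of D1 were 44.8% G or C over 116 bases. In Lig4-/-, 14 of 21 Igk joins shared at least 2 bases.

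Among far joins, microhomology of at least 2 bp was highest in Lig4-/-. Far joins with it made up 74.2% ± 25.0 in Lig4-/- (100.0%, 72.7% and 50.0% of 7, 11 and 8 reads), 18.5% ± 2.20 in +Lig4, 18.3% ± 0.3 in clone D1 and 17.8% ± 1.58 in clone D2. The difference from Lig4-/- was -55.7 points in +Lig4, -55.9 in D1 and -56.4 in D2, each without overlap (exact permutation p = 0.100). In Igk alone, D1 and D2 differed from +Lig4 by 0.679 and 0.583 points (exact permutation p = 0.700 and 1.00). These values pool parts of Igk that went opposite ways. With replicates summed, the coding-side share with at least 2 bp was 9.24% in +Lig4, 18.5% in D1 and 17.9% in D2. On the signal side it was 22.3%, 17.1% and 18.4%, and away from RAG ends 27.1%, 19.4% and 18.3%. Igk joins with exactly 1 shared base made up 10.6% in +Lig4, 22.7% in D1 and 22.9% in D2. The shares by side and at 1 base were not tested. With +Ku70 the far value was 22.2% ± 3.62 in D1 and 13.8% ± 12.7 in D2. The clones went opposite ways, by 3.94 points in D1 without overlap and by -3.99 points in D2 with overlap. Replicates 2 and 3 of D2 +Ku70 held 8 and 7 far reads. Over both clones the difference was -0.0269 points (exact permutation p = 1.00), and 9.58 points without G-rich prey (exact permutation p = 0.230). In Igk alone it was 5.70 points in D1 without overlap and -7.15 points in D2 with overlap.

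More bait bases were missing in the double-deficient clones than in +Lig4. On the bait side, Igk joins of +Lig4 had lost a median of 0, 1 and 0 bp in the 3 libraries, against 12, 11 and 11 bp in D1 and 7, 11 and 7 bp in D2. On the scale of log10 of 1 plus the median, D1 lay 0.99 and D2 0.86 above +Lig4 (exact permutation p = 0.100 each). The bait ended at the cut or up to 4 bp past it in 54.0% of Igk joins in +Lig4, in 9.56% in D1 and in 14.6% in D2. The largest loss was 35 bp among far joins, against 41 bp among direct joins within 100 kb. Longer losses of bait are not among the listed far joins, and the medians leave any such joins out.

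The Igk side was trimmed more in the double-deficient clones than in +Lig4. Coding ends had lost a median of 6, 7 and 6 bp in +Lig4, 16, 16 and 14 bp in D1 and 11, 17 and 12 bp in D2. Signal ends had lost 6, 10 and 2.5 bp in +Lig4, 16, 15 and 14 bp in D1 and 12, 15 and 14 bp in D2. Neither side overlapped between +Lig4 and either clone (exact permutation p = 0.100). The full end was kept, or passed, by 17.9%, 14.3% and 38.3% of signal-side joins in the +Lig4 libraries, against 7.20% to 8.09% in D1 and 8.02% to 8.86% in D2. On the coding side it was 7.41% to 12.3% in +Lig4, 3.33% to 4.72% in D1 and 3.09% to 5.95% in D2. In Lig4-/- the median loss over all libraries was 42.5 bp for 6 coding-side joins and 29 bp for 8 signal-side joins, and none of the 14 ends was intact. Its library medians, each of 1 to 4 joins, were 58, 62 and 14 bp on the coding side and 9, 57.5 and 23 bp on the signal side. They overlap those of D1 and D2.

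**Figure D4:**
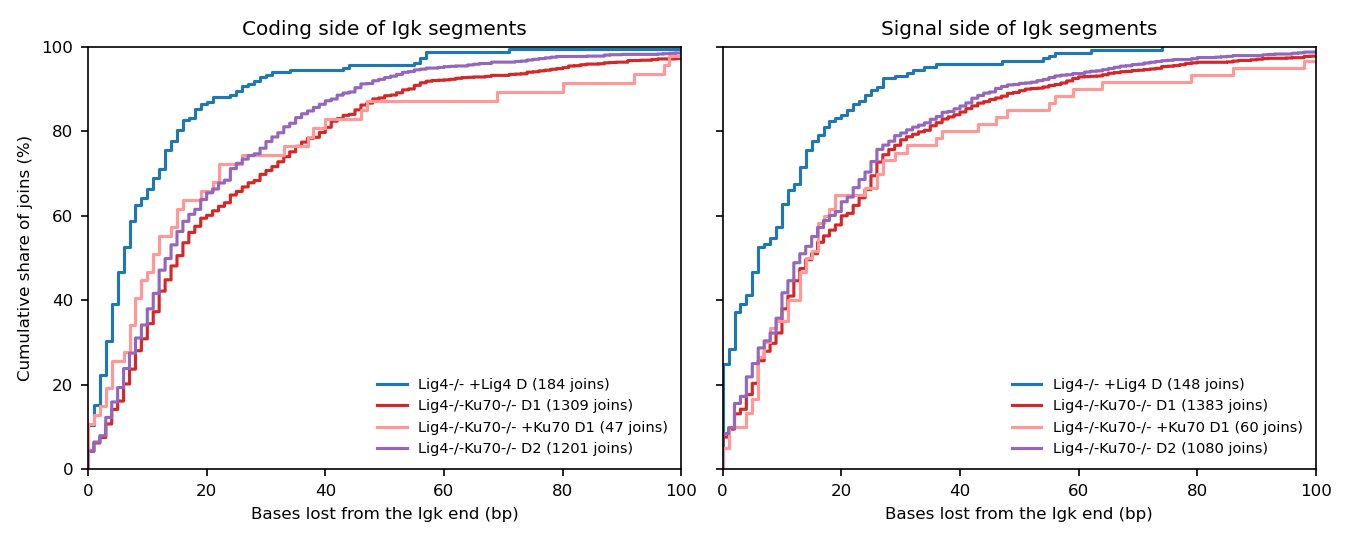
Cumulative share of joins (%) by bases lost from the Igk end (bp), for coding and signal sides, 1 line per group with replicates summed. The +Lig4 line reaches its median at 6 bp on each side, against 13 to 15 bp in clones D1 and D2.

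The +Ku70 groups had few Igk joins for a comparison of structure. Bait loss differed by 0.04 on the log10 scale (exact permutation p = 0.520), blunt joints by -7.97 points (exact permutation p = 0.615) and inserted joints by 0.26 points (exact permutation p = 0.865). The blunt value was -20.8 points without D2 +Ku70 replicate 3 (exact permutation p = 0.0150) and 4.19 without replicate 2, both of which hold 2 Igk joins. Clone D1 +Ku70 had 128 Igk joins, of which 53.1% were blunt and 23.4% shared at least 2 bp. Clone D2 +Ku70 had 41, of which 46.3% were blunt and 29.3% shared at least 2 bp. A p above the threshold here does not show that the joints were alike.

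Far joins outside Igk with no G-rich prey numbered 287, with 5 reads in Lig4-/-, 51 in +Lig4, 106 in clone D1, 103 in clone D2, 19 in D1 +Ku70 and 3 in D2 +Ku70. Of these, 192 lay over 10 Mb away on the side of Igk and 47 over 10 Mb away on the other side, counts that do not allow for the length of chromosome on each side. Between 100 kb and 1 Mb lay 4, all on the side of Igk. No junction was repeated within a library. The windows with the most were one at 120610001 to 120620000 without a gene (7 joins in 4 libraries), one at 48670001 to 48680000 that holds or touches Gimap9 (5 joins in 5 libraries) and one at 25260001 to 25270000 without a gene (3 joins in 3 libraries). In the last, the same position (25264474) recurred in Lig4-/-, D1 and D2 with 17 bases shared with the bait, as in this read.
Far join at 25264474: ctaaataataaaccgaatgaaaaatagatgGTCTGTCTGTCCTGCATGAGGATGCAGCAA
Overlaps of at least 15 bp occurred in 6 of the 287 reads at 3 positions, while the longest overlap in Igk was 12 bp.

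Inverted joins were rare in all groups and did not follow the far joins. Lig4-/- held 3, 15 and 9 reads, +Lig4 4, 7 and 2, clone D1 5, 3 and 4, D1 +Ku70 5, 3 and 3, clone D2 1, 1 and 2, and D2 +Ku70 2, 0 and 0. Per 100000 raw reads that is 1.50 ± 1.00 (SD, n = 3) in Lig4-/- and 0.722 ± 0.419 in +Lig4. It is 0.667 ± 0.167 in D1 and 0.222 ± 0.0962 in D2. D2 differed from Lig4-/- by -2.17 on the log2 scale without overlap (exact permutation p = 0.100), whereas D1 (-0.86, exact permutation p = 0.400) and +Lig4 (-0.87, exact permutation p = 0.400) overlapped it. With +Ku70 the difference was -0.59 (exact permutation p = 0.290), and between clones it did not differ detectably (0.94, exact permutation p = 0.370). The 2 libraries without an inverted join have 69 and 25 direct joins, so 3 reads would be shares of 4.35% and 12%, and the upper limits of the exact intervals are 5.21% and 13.7%.

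As a share of joins within 100 kb, inverted joins were highest in Lig4-/-, where direct rejoins were few. These shares count reads, and inverted joins were all distinct while direct joins were often repeated. In replicate 1, distinct direct junctions numbered 107 in 311 reads in Lig4-/- and 1034 in 9510 in +Lig4. They numbered 1291 in 15938 in D1 and 335 in 916 in D1 +Ku70. The size of the differences thus also depends on how repeats are counted. The share was 0.955% (95% interval 0.197 to 2.77), 2.35% (1.32 to 3.84) and 1.39% (0.638 to 2.62) in the Lig4-/- libraries. It was 0.0231% to 0.0785% in +Lig4, 0.0195% to 0.0314% in clone D1 and 0.00679% to 0.0362% in clone D2. Differences from Lig4-/- were -1.52, -1.54 and -1.55 points, each without overlap (exact permutation p = 0.100). Clone D1 +Ku70 had 0.543%, 0.428% and 0.509%, above every D1 library, and D2 +Ku70 had 0.27%, 0 and 0. With Ku70 the share was higher by 0.271 points (exact permutation p = 0.0500, adjusted p = 0.175), by 0.468 in D1 and 0.0733 in D2, and it was 0.226 points with p = 0.0900 by the exact permutation test without D2 +Ku70 replicate 1.

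All inverted joins lay within 10942 bp of the cut, although the rule allowed 100 kb. The median distance was 1080 bp, 34 of 69 lay within 1 kb and 3 within 10 bp. Of the 69, 48 (69.6%, 95% interval 57.3 to 80.1) lay on the bait side, where the read turns back along the sequence it came from, and 21 lay beyond the cut, where it runs back toward it. Direct joins lay beyond the cut in 113205 of 113267 reads. On the bait side the median distance was 1425 bp and beyond the cut 423.0 bp. Only 1 inverted prey fell in an annotated gene, Trbv31 (41557693 to 41558371), a V segment of the T-cell receptor beta locus, and the others lay between annotated genes around Eb. Every inverted junction was distinct, and just 2 positions had more than 1 read, at 411 bp and 6 bp on the bait side.

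**Figure D5:**
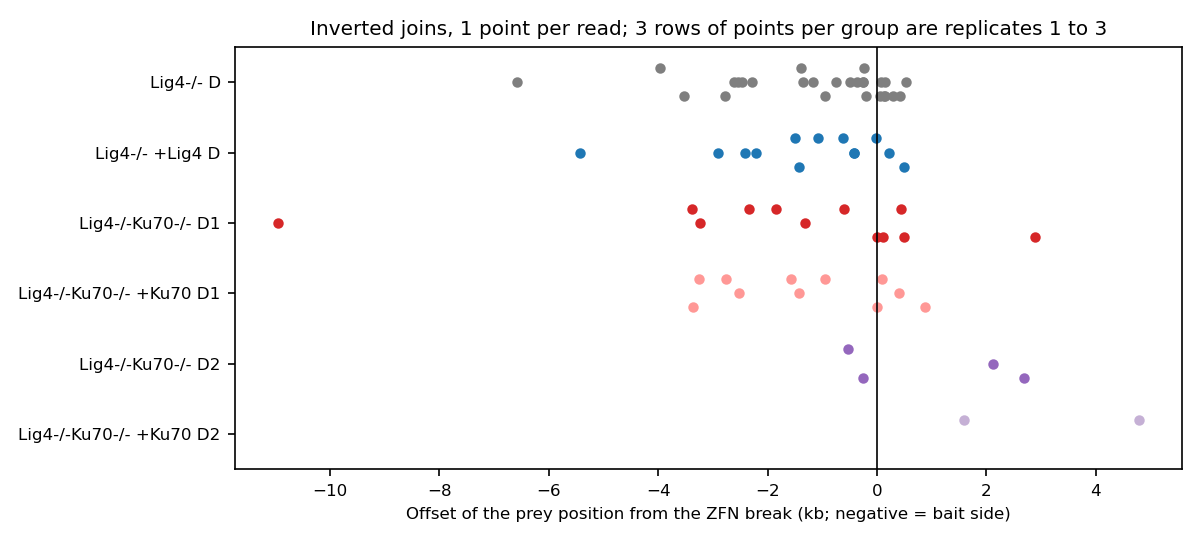
Offset of the prey position from the cut (kb, negative on the bait side) for each of the 69 inverted joins, 1 point per read, in 6 groups with replicates 1 to 3 as rows of points from top to bottom. The points lie between 10942 bp on the bait side and 4790 bp beyond the cut, and 48 of 69 are on the bait side.

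The structure of inverted joins was mixed. Over all groups 35 of 69 (50.7%) shared at least 2 bp, 19 held inserted bases and 5 were blunt. In Lig4-/- 14 of 27 shared at least 2 bp, against 14 of 21 of its Igk joins, and none was blunt, and in +Lig4 6 of 13 did and none was blunt. In D1 5 of 12 shared at least 2 bp, in D1 +Ku70 9 of 11, and in D2 none of 4. The difference with +Ku70 was 46.4 points over the 10 libraries that had an inverted join (exact permutation p = 0.0250, adjusted p = 0.175). It was 11.1 points when at least 3 bp were required (exact permutation p = 0.500), and clone D2 +Ku70 entered it with 1 library of 2 reads. Bait loss had a median of 5 bp in Lig4-/-, 8 in +Lig4, 16.5 in D1, 8 in D1 +Ku70 and 15 in D2, with differences from Lig4-/- of 0.32 in D1 and 0.37 in D2 on the log10 scale (exact permutation p = 0.200 and 0.100). For median prey distance the 4 comparisons gave exact permutation p from 0.388 to 0.500.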

How the data were processed

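Joins were counted in the junction lists the authors deposited, 1 row per read, which are positions and other read coordinates with no normalised unit. The authors had set each ZFN library to 600000 raw reads, per the labels, and made the lists with a pipeline named JoinT-seq, per the labels. Bowtie2 and the build mm10 are named in the submitters' processing notes; parameters are not given in the sources used here. Shared or inserted bases are the overlap or gap of bait and prey on the read, and bait loss is counted back from 41554976. RefSeq annotation (GRCm38.p6, the same coordinates as mm10) gave genes. V segments needed 10 rows in 6 wild-type RAG lists and a most frequent position within 10 bp of the annotated end; 119 of 162 met this.

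Each measure was computed per library and put to a two-sided exact permutation test over libraries (20 relabellings, smallest p 0.1; 400 within clones for +Ku70, smallest p 0.005), adjusted by Benjamini-Hochberg over 84 tests. The exact test and the end assignment were tested on simulated data. Libraries without a value left a test. Members, lists and tests were chosen with earlier results of these data known. Comparisons with +Lig4, the Igk joint, end and segment measures, the sequencing-run values and the G-rich filter were added after seeing these files. Named were 6 windows of 1 kb in Igk and 5 of 10 kb outside it. They had the most distinct junctions in at least 3 libraries. Also named were 5 inverted positions, and the most frequent junctions for the printed reads. Where junctions tied, as all inverted joins did, the printed read was 1 of the tied ones. Segments, the Igkv11-114 edge and windows without G-rich prey were named after their values were seen. The 6 Igk windows hold Igkv1-135, Igkj1 with Igkj2, Igkv6-32, Igkv1-117, Igkv8-30 and Igkv11-114. Same-numbered libraries of compared groups deviated together with correlations of -0.40 to 0.24 over 51 positions, so the numbers were not taken to pair them. D1 replicates 2 and 3 did not differ over the join classes (chi-square 0.212, p = 0.976), while replicate 1 differed from both; they shared 90 of 1126 and 1164 distinct Igk junctions and no read name, and were counted as separate. Alternatives were other windows, overlap minimums, alignment lengths and added counts, distinct junctions, G-rich prey or the top junction left out, the replicate block and each library left out. Python 3.11.15, pandas 2.3.3, NumPy 2.4.6 and SciPy 1.17.1 were used.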

Additional observations from a re-analysis of the deposited data

How the results depend on the processing

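The alternatives gave 1138 values, of which 1070 kept direction and side of the 0.05 threshold, 44 reversed, 19 lost and 5 gained a p at or under 0.05. In comparisons of 3 with 3 libraries the exact permutation p cannot fall below 0.1, also with a library left out or in the replicate block. Except where D1 and D2 were pooled, only the direction of these could change, so the count of kept values was partly fixed by the design. With D1 and D2 pooled against clone D, far joins differed by 6.83 and Igk joins by 7.03. With each distinct junction counted once the far share with +Ku70 differed by -29.2 points, which also depends on the number of junction reads. Without G-rich prey it differed by -1.20. Outside Igk alone, G-rich prey included, the far share differed from Lig4-/- by -0.0223 in D1 and -0.125 in +Lig4, and far bait loss in D2 by 0.47. Without prey alignments under 30 bp the +Lig4 far share differed by -0.00558. Inverted microhomology with +Ku70 was 29.7 at a minimum of 1 bp, 11.1 at 3 bp and 79.2 without the most frequent junction. For +Lig4 it was 13.0 (alignments of 30 bp or more), 2.86 (3 bp) and 4.71 (prey within 10 bp left out), and inverted bait loss was -0.05, -0.05 and -0.06 (window of 1 Mb, prey within 10 bp left out, most frequent junction left out). Far microhomology with +Ku70 was 1.20 (30 bp), 5.15 (3 bp) and 9.58 (G-rich left out). The clone difference of inverted joins was -0.16 without the most frequent junction. Every inverted junction was distinct, so for inverted joins all junctions tied as the most frequent. The setting then left out the read of lowest position in each library, which is an arbitrary choice. The inverted values of 79.2, -0.06 and -0.16 rest on it. The causes were not tested.

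The numbers were not taken to pair libraries. With the replicate block, the +Ku70 differences of 0.271 points (inverted share), 46.4 (inverted microhomology) and 5.36 (signal side) each had an exact permutation p of 0.125, and no other call changed.

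Leaving out 1 library at a time gave, for +Ku70, 0.226 to 0.293 points for the inverted share, 1.77 to 4.64 for the far share, -2.82 to 3.43 for far and -6.13 to 1.98 for Igk microhomology, -0.464 to 0.978 for inserts, -20.8 to 4.19 for blunt joints (the lowest with exact permutation p = 0.0150), -20.9 to 4.09 for RAG ends, 3.26 to 7.11 for the signal side, -2.37 to 10.1 for J segments, and -0.09 to 0.26 and -0.07 to 0.20 for coding and signal loss. For +Lig4 against Lig4-/- it gave -0.235 to 0.245 (far share), -3.83 to 14.3 (Igk share), -15.5 to 7.69 (inverted microhomology) and -0.12 to 0.24 (inverted bait loss). For D2 against Lig4-/- far bait loss was -0.13 to 0.07. Against +Lig4, Igk microhomology was -0.702 to 1.92 in D1 and -0.798 to 1.83 in D2, and the D2 signal share -0.192 to 5.06. With 2 to 27 inverted joins and 21 to 128 Igk joins in the smallest groups, the number of joins limits the precision of the inverted, Lig4-/- and +Ku70 values.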
